A study of Homo sapiens with 3 samples.

Results

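Mitochondrial ribosomal protein genes were taken as the protein-coding genes whose symbols are MRPL (large subunit) or MRPS (small subunit) followed by a number, read from array probe sets annotated to exactly 1 gene. The rule found 142 probe sets and 77 symbols, of which the antisense RNA MRPL20-AS1 and the pseudogene MRPL45P2 were left out as they encode no ribosomal protein. The remaining 75 genes, 48 of the large and 27 of the small subunit, carried 140 probe sets. All 75 passed the filter on low signals with 131 probe sets and stood among 12321 tested genes. MRPL53 and MRPS24 were carried only by probe sets shared with other genes and were not analysed here.

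Gene expression was measured in HCT-116, a human colorectal cancer cell line, on 3 Affymetrix arrays with 1 array per condition. Wild-type cells (SCD1-WT) received T-3764518, a small-molecule inhibitor of the fatty acid desaturase SCD1, at 100 nM for 24 h. SCD1-KO cells, made by CRISPR-Cas9 with a pair of guides and puromycin selection and then plated sparsely, were treated with DMSO for 24 h, and how many clones the array represents is not stated. The reference was SCD1-WT cells treated with DMSO, the vehicle, for 24 h. The labels give neither the dose nor the vehicle and time of the SCD1-KO cells, which come from the study's methods. Both ratios were formed against the same DMSO array and so are not independent of each other. With 1 array per condition there was no replicate check, and values, counts and folds are given without tests.

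Mitochondria keep a ribosome of their own, the mitoribosome, which is descended from that of bacteria and translates the few messages encoded in mitochondrial DNA. All of its proteins are encoded in the nucleus, made in the cytosol and imported. Its products are core subunits of the respiratory chain and ATP synthase, so the mitoribosome is built in step with the nuclear-encoded subunits of the same complexes. Some of its proteins have counterparts in bacterial ribosomes, and others are found in mitochondria alone. Promoters of many such genes are known to hold sites for the transcription factor NRF1 and for ETS factors of the GABP kind.

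The 250 bases before the annotated start of each gene were read from RefSeq promoters of build GRCh38.p14, in which 67 of the 75 genes were matched. An NRF1 core, GCGCATGC on either strand, lay in 6 promoters of these 67 genes (8.96%), against 4.77% of the 9567 promoters of tested genes and 3.70% of all 15842 protein-coding promoters. An ETS motif, CCGGAAG on either strand, lay in 22 (32.8%), against 16.2% and 11.8%. The motif AAGATGG of YY1 lay in 7 (10.4%, against 3.55% and 3.35%), while the E-box CACGTG lay in 6 (8.96%, against 8.89% and 7.84%) and CCAAT in 19 (28.4%, against 35.1% and 34.5%). These letters are matches and not measured sites, and none of the motifs is contained in another. Promoters are shown of MRPS34, the member lowest with T-3764518, and of MRPL22, the large-subunit member lowest in the SCD1-KO cells. Those of MRPL32 (low on both arrays), MRPS18B (the small-subunit member whose ratios differed most) and MRPL54 (high on both) follow. All promoters shown hold an NRF1 core or an ETS motif, so they are not typical of the 67 searched. MRPS27, lowest of all members in the SCD1-KO cells, and MRPL12, low on both arrays, hold neither motif. Each promoter shown is written 5′ to 3′ in the direction of the gene. It ends at the base before the gene's start, and capitals mark NRF1 cores and ETS motifs.
MRPS34, chr16:1773135-1773384, minus strand, with 3 ETS matches: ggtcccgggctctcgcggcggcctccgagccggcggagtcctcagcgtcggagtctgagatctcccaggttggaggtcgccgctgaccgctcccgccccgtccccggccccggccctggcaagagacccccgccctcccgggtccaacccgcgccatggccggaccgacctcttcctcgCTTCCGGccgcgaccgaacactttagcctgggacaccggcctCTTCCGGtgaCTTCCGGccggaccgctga
MRPL22, chr5:154940823-154941072, plus strand, with an NRF1 core: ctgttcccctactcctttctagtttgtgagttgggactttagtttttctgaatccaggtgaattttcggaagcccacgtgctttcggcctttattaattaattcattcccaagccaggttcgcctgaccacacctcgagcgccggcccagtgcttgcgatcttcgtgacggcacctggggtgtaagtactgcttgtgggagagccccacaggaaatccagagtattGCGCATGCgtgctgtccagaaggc
MRPL32, chr7:42932126-42932375, plus strand, with an NRF1 core: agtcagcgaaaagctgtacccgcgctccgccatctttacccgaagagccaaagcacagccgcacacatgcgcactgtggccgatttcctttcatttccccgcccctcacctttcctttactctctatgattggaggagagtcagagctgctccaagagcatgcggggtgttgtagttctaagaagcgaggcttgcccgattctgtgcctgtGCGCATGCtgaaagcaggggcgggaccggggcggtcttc
MRPS18B, chr6:30617590-30617839, plus strand, with an NRF1 core: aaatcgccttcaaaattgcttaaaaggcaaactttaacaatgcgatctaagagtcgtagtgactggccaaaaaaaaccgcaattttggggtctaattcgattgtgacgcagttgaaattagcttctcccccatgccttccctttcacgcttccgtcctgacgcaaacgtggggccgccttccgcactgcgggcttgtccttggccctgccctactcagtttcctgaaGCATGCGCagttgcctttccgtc
MRPL54, chr19:3762432-3762681, plus strand, with an ETS match: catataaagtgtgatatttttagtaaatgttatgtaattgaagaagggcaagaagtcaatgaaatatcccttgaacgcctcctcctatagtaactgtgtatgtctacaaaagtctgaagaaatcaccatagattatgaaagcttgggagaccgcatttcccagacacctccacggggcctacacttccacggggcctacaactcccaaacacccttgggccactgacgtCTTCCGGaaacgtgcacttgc

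The NRF1 core ends 17 bases before the start in MRPL22, 32 bases in MRPL32 and 16 bases in MRPS18B, and the nearest ETS match ends 13 bases before the start in MRPS34 and 15 bases in MRPL54. Members with and without an NRF1 core had median log2 ratios to DMSO of -0.10 and -0.14 with T-3764518 and of -0.15 and -0.10 in the SCD1-KO cells. For the ETS motif these medians were -0.09 and -0.14 with T-3764518 and -0.13 and -0.09 in the SCD1-KO cells. For the NRF1 core and the ETS motif, the gaps between members with and without were small beside the SD of the members' own ratios, 0.22 with T-3764518 and 0.26 in the SCD1-KO cells. The 7 members with the YY1 letters had a median of -0.01 with T-3764518 and 0.24 in the SCD1-KO cells, against -0.14 and -0.11 in the members without. For the E-box the medians were -0.18 and -0.11, against -0.13 and -0.10 without. For CCAAT they were -0.21 and -0.14, against -0.10 and -0.09 without. YY1 thus had the widest gap of the motifs searched, on few genes, and none of these gaps was tested.

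A gene's signal below is the geometric mean of its kept probe sets on 1 array, in MAS5 units, and its log2 ratio is the median over those probe sets of the log2 ratio to DMSO. Signals are compared between arrays and not between genes. The arrays had the same trimmed mean signal of 500.1, and their medians were 56.7 with T-3764518, 62.4 in the SCD1-KO cells and 68.8 with DMSO. The 3′ to 5′ signal ratio of ACTB, a sign of RNA quality, was 1.36, 1.54 and 1.30 on the T-3764518, SCD1-KO and DMSO arrays. SCD, the edited gene, gave higher signals in the SCD1-KO cells than with DMSO on each of its 4 probe sets (log2 0.02 to 1.36). Edited transcripts can persist and the edited bases were not compared with the probes, so the arrays do not check the knockout. The study itself reported a genomic deletion by sequencing and no SCD1 protein by western blot in its SCD1-KO cells. Of 8 colon epithelial markers 7 were tested, with summed signals of 59724, 54189 and 55878 on the 3 arrays in the same order. Keratins were bright, with KRT18 at 25877, 28120 and 23407. In the SCD1-KO cells, 4 of the 7 epithelial markers lay above DMSO and 3 below. EPCAM (17224, 6840 and 16859) and CDH1 (1197, 300.1 and 835) were lower there by log2 ratios of -1.30 and -1.48, and VIL1 read -0.15. Higher were CDX2 (0.95, on a dim signal of 115.1 against 59.6 with DMSO), KRT8 (0.36), KRT19 (0.34) and KRT18 (0.26). Of 8 markers of blood, vessel and connective tissue cells, 4 passed the filter, none differed by 2-fold, and the sum of their signals was 1456, 1304 and 1505. The part of these differences in the results on mitochondrial ribosomal protein genes was not tested.

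None of the 75 genes differed from DMSO by 2-fold in either direction, with T-3764518 or in the SCD1-KO cells. Among all tested genes, T-3764518 gave 2.18% higher and 3.3% lower by 2-fold, and SCD1-KO cells 3.12% higher and 3.93% lower. The members gave bright signals, with 46 of 75 above percentile 80 of the tested genes. Among 2064 other tested genes lying between the quartiles of the members' signals (1174 to 3123), T-3764518 gave 1.94% higher and 0.775% lower, and the SCD1-KO cells 1.36% higher and 1.5% lower. With shares this low, a count of 0 among 75 genes is close to the background and is no result about the members.

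At 1.5-fold (a log2 ratio of 0.585), 1 member was lower with T-3764518, MRPS34, and 2 were lower in the SCD1-KO cells, MRPL22 and MRPS27. In either comparison 0 were higher. MRPS34, MRPL22 and MRPS27 each had 1 kept probe set. The background at 1.5-fold was 6.62% higher and 12.3% lower with T-3764518, and 9.95% higher and 11.4% lower in the SCD1-KO cells. At the members' signals it was 7.22% higher and 4.75% lower with T-3764518, and 6.88% higher and 6.25% lower in the SCD1-KO cells. The counts of 0 to 2 among 75 members stand below these shares, as a description of the 3 arrays with no test.

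The members had a median log2 ratio of -0.13 with T-3764518 (91.3% of DMSO), with quartiles of -0.27 and 0.02 and a range of -0.59 to 0.33. In SCD1-KO cells the median was -0.09 (93.8% of DMSO), with quartiles of -0.33 and 0.07 and a range of -0.65 to 0.56. The summed signal of the members was 178821 with T-3764518, 176224 in the SCD1-KO cells and 188950 with DMSO, and their probe sets held 0.632%, 0.641% and 0.669% of all signal on those arrays. Of 75 members, 54 (72.0%) lay below 0 with T-3764518, against 59% of all tested genes and 50.9% at the members' signals. In SCD1-KO cells 47 members (62.7%) lay below 0, against 51.1% and 47.9%. These directions are relative to the arrays' common trimmed mean: with each array scaled to 1 median signal instead, all tested genes shifted up by 0.28 with T-3764518 and 0.14 in the SCD1-KO cells, and the members' medians became 0.15 and 0.05. Ratios of single genes move by the same amounts, so those lying closer to 0 than the shift and below it change sign. Set against the median of all tested genes (-0.09 with T-3764518 and -0.01 in the SCD1-KO cells), the members' median was lower by 0.04 and 0.08 as deposited, and was lower under each of 10 alternative ways of processing, by a log2 difference of -0.13 to -0.02 with T-3764518 and of -0.10 to -0.03 in the SCD1-KO cells. Of these alternatives, scaling to 1 median shifts all genes alike and cannot change this difference, so it is no separate check. The added offset and the floor at the filter left the difference nearly as deposited (both -0.05 with T-3764518 and -0.08 in the SCD1-KO cells). The other tested genes at the members' signals had medians of -0.01 with T-3764518 and 0.02 in the SCD1-KO cells. The members' medians lay further below these than below the medians of all tested genes. That comparison was made on the deposited values only and was not tested. In bulk RNA scaled to a common total, fewer cells of a type and less RNA per cell cannot be told apart.

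**Figure D1:**
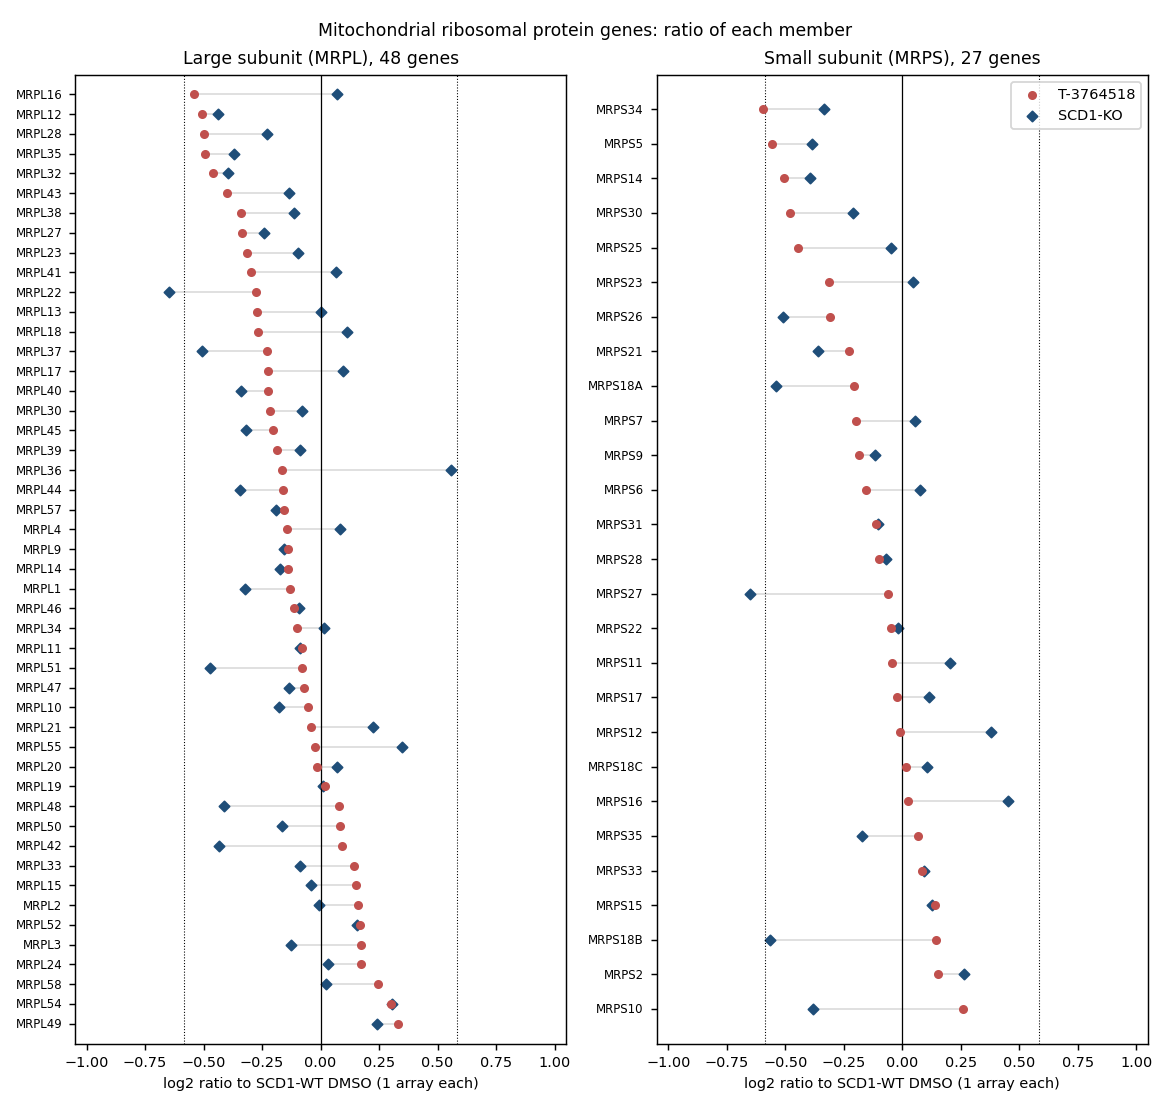
Log2 ratio of each mitochondrial ribosomal protein gene to the SCD1-WT DMSO array, with T-3764518 (red circles) and in the SCD1-KO cells (blue diamonds), 1 array each, sorted by the T-3764518 ratio; dotted lines mark 1.5-fold. Only MRPS34 with T-3764518 and MRPL22 and MRPS27 in the SCD1-KO cells lie past a dotted line, and all 3 lie below 0.

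The 48 large-subunit genes had a median log2 ratio of -0.14 with T-3764518 and -0.09 in the SCD1-KO cells, and 35 and 31 of them lay below 0. The 27 small-subunit genes had medians of -0.10 and -0.07, with 19 and 16 below 0. The large-subunit median was thus lower than the small-subunit median by log2 differences of -0.04 with T-3764518 and -0.02 in the SCD1-KO cells, but the sign of that difference turned with the processing, its range over the 10 alternatives being -0.05 to 0.23 with T-3764518 and -0.06 to 0.08 in the SCD1-KO cells. The SD of ratios within a subunit was 0.22 (large) and 0.23 (small) with T-3764518, and 0.24 and 0.30 in the SCD1-KO cells, several times any of the differences between medians as deposited. Structures place the products of MRPS30 and MRPS18A in the large subunit, against their symbols. Counting them there moved the difference to -0.08 with T-3764518 and -0.05 in the SCD1-KO cells.

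**Figure D2:**
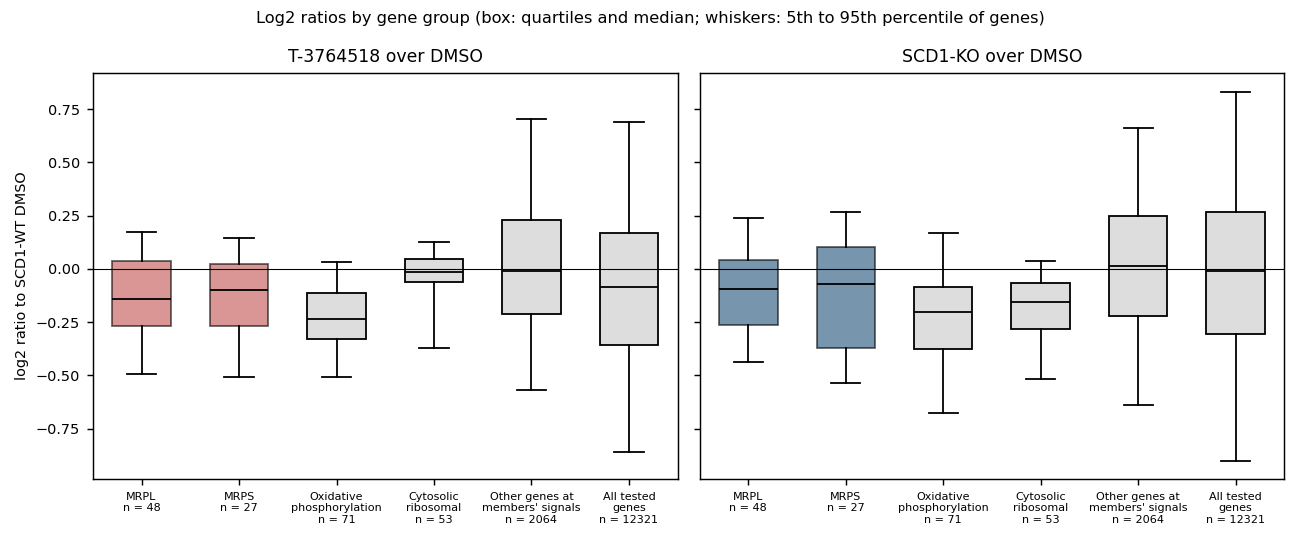
Log2 ratios to SCD1-WT DMSO with T-3764518 (left panel) and in the SCD1-KO cells (right panel) for large-subunit (MRPL) and small-subunit (MRPS) genes, oxidative phosphorylation genes, cytosolic ribosomal protein genes, other tested genes at the members' signals, and all tested genes; boxes are quartiles with the median, whiskers run over the 5th to 95th percentile of genes. The MRPL and MRPS boxes overlap, with medians of -0.14 and -0.10 (T-3764518) and -0.09 and -0.07 (SCD1-KO), and are narrower than that of all tested genes (SD of all members 0.22 and 0.26, against 0.50 and 0.58). This is not particular to the members: the SDs were 0.23 and 0.28 for oxidative phosphorylation, 0.18 and 0.29 for cytosolic ribosomal genes, and 0.42 and 0.44 at the members' signals. In the SCD1-KO cells the MRPS box is as wide as that of genes at the members' signals (0.47 each between quartiles).

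By ancestry, the 47 genes with a bacterial counterpart had a median of -0.13 with T-3764518 and -0.07 in the SCD1-KO cells, and the 28 mitochondria-specific genes -0.14 and -0.15. Within the small subunit the gap was wider: the 10 mitochondria-specific genes had medians of -0.21 and -0.14 with 8 below 0 in each, against -0.04 and 0.05 for the 17 genes of bacterial families, with 11 and 8 below 0. In the large subunit the 18 mitochondria-specific genes gave -0.14 and -0.15 and the 30 genes of bacterial families -0.14 and -0.08. Subunits here follow the symbols. The small-subunit groups thus count MRPS30 (mitochondria-specific, -0.48 and -0.21) and MRPS18A (bacterial family, -0.21 and -0.54), which structures place in the large subunit. With T-3764518, MRPS30 lay below the median of its group, and its probe sets spread from -0.80 to 0.05. The medians were not recomputed without these genes. Of all 75 members, 72.0% lay below 0 with T-3764518 and 62.7% in the SCD1-KO cells. The ancestry groups hold few genes and were not tested.

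Among large-subunit genes, the lowest ratios with T-3764518 were those of MRPL16, MRPL12 and MRPL28. MRPL16, whose bacterial counterpart lies near the site where peptide bonds are made, had a signal of 1907 with T-3764518, 2914 in the SCD1-KO cells and 2775 with DMSO, log2 ratios of -0.54 and 0.07. MRPL12, the mobile stalk protein that draws translation factors to the ribosome, had 594, 623 and 843 (-0.51 and -0.44), and MRPL28 had 639, 769 and 902 (-0.50 and -0.23). The T-3764518 array was the lowest for all 3 genes, while the SCD1-KO array lay near DMSO for MRPL16 and near T-3764518 for MRPL12.

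The MRPL12 value rests on probe sets that disagreed. The brighter gave 3362 with T-3764518, 5077 in the SCD1-KO cells and 4098 with DMSO, log2 ratios of -0.29 and 0.31, and the dimmer gave 105, 76.5 and 173.5, ratios of -0.73 and -1.18. With T-3764518 both were lower than DMSO, and in the SCD1-KO cells they went opposite ways, so MRPL12 has no settled direction there.

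The highest large-subunit ratios with T-3764518 were smaller in size. MRPL49, a mitochondria-specific protein, had signals of 3854 with T-3764518, 3625 in the SCD1-KO cells and 3067 with DMSO, ratios of 0.33 and 0.24. MRPL54, another mitochondria-specific protein, had 1893, 1903 and 1539 (0.30 and 0.31). MRPL58, also known as ICT1, which can free peptides from stalled mitoribosomes and is built into the large subunit, had 3268, 2800 and 2755 (0.25 and 0.02). The DMSO array was the lowest of the 3 for each of these genes, by 1.26-fold for MRPL49 and 1.23-fold for MRPL54 against T-3764518.

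In the small subunit, MRPS34 had the lowest T-3764518 ratio of all members. This mitochondria-specific protein is needed for a stable small subunit, and its signal was 1464 with T-3764518, 1751 in the SCD1-KO cells and 2211 with DMSO, ratios of -0.59 (1.51-fold lower) and -0.34. MRPS14, a protein of the small subunit's head, had 586, 634 and 832, ratios of -0.51 and -0.39, and both of its probe sets were lower than DMSO on each array. MRPS5, whose bacterial counterpart lies by the channel where mRNA enters, had 248, 266 and 374, ratios of -0.56 and -0.39. For all 3 genes DMSO was the highest array and T-3764518 the lowest.

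The MRPS5 ratio was set by its dim probe sets. Its brightest probe set gave 2531 with T-3764518, 2352 in the SCD1-KO cells and 2813 with DMSO, ratios of -0.15 and -0.26. Its dimmest gave 53.6, 50.1 and 96.3, and another 46.1, 69.4 and 99.0, just inside the filter, which sits at a mean signal of 56.6. A probe set of MRPS11 lay just outside it, with 34.7, 85.0 and 55.7. All 4 MRPS5 probe sets were lower than DMSO on both arrays, but by -0.15 to -1.10 with T-3764518.

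The highest small-subunit ratios with T-3764518 belonged to MRPS10, MRPS2 and MRPS18B. MRPS10 had signals of 3233 with T-3764518, 2343 in the SCD1-KO cells and 2707 with DMSO, ratios of 0.26 and -0.38. MRPS2 had 2777, 3000 and 2496 (0.15 and 0.27). MRPS18B had 3497, 2142 and 3167 (0.14 and -0.56). MRPS2 was thus higher than DMSO on both arrays, whereas MRPS10 and MRPS18B were highest with T-3764518 and lowest in the SCD1-KO cells. With T-3764518 the MRPS18B probe sets read -0.02 and 0.30, so its direction on that array depends on the probe set.

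**Figure D3:**
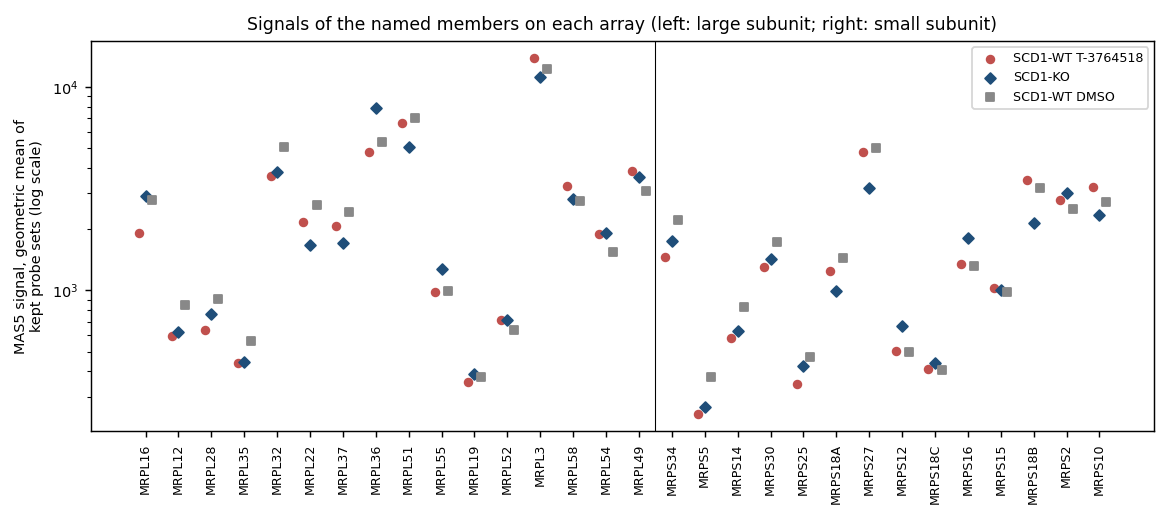
MAS5 signal (log scale) of each named mitochondrial ribosomal protein gene with T-3764518 (red circles), in the SCD1-KO cells (blue diamonds) and with DMSO (grey squares), 1 array each, sorted within each subunit by the T-3764518 ratio; levels are not comparable between genes. MRPS34 reads 1464 with T-3764518, against 2211 with DMSO, and MRPL36 stands out in the SCD1-KO cells at 7832.

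In SCD1-KO cells the lowest ratios of the large subunit were those of MRPL22, MRPL37 and MRPL51. MRPL22, which lines the tunnel through which new peptides leave, had a signal of 2175 with T-3764518, 1676 in the SCD1-KO cells and 2630 with DMSO, ratios of -0.27 and -0.65, and the SCD1-KO value was 1.57-fold lower. MRPL37, a mitochondria-specific protein, had 2062, 1699 and 2413 (-0.23 and -0.51), and MRPL51, also mitochondria-specific, had 6625, 5041 and 6998 (-0.08 and -0.47). Each was lowest in the SCD1-KO cells and highest with DMSO.

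The highest large-subunit ratios in the SCD1-KO cells were those of MRPL36, MRPL55 and MRPL54. MRPL36, a very small protein of bacterial ancestry, had 4759 with T-3764518, 7832 in the SCD1-KO cells and 5329 with DMSO, ratios of -0.16 and 0.56. Its SCD1-KO ratio (1.47-fold) was the highest of all 75 members, and the T-3764518 array lay below DMSO. MRPL55 had 980, 1267 and 997 (-0.02 and 0.35), so the T-3764518 and DMSO arrays hardly differed while the SCD1-KO array was higher.

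In the small subunit, MRPS27 was lowest in the SCD1-KO cells. It is a pentatricopeptide repeat protein, of a family that binds RNA, and its signal was 4805 with T-3764518, 3191 in the SCD1-KO cells and 5011 with DMSO, ratios of -0.06 and -0.65. MRPS18B followed at -0.56, with its pair of probe sets at -0.64 and -0.49. MRPS18A had 1244, 989 and 1436 (-0.21 and -0.54), with probe sets at -0.43 and -0.64 in the SCD1-KO cells. With T-3764518, MRPS27 lay close to DMSO, MRPS18B above it by its median though not on both probe sets, and MRPS18A below it.

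The highest small-subunit ratios in the SCD1-KO cells were those of MRPS16, MRPS12 and MRPS2. MRPS16 had signals of 1341 with T-3764518, 1800 in the SCD1-KO cells and 1318 with DMSO, ratios of 0.03 and 0.45, and both of its probe sets were higher than DMSO in the SCD1-KO cells (0.23 and 0.67). MRPS12, whose bacterial counterpart helps check codon pairing at the decoding site, had 506, 671 and 500.0 (-0.01 and 0.38). All 4 of its probe sets were higher than DMSO in the SCD1-KO cells, by 0.08 to 0.86, while with T-3764518 they lay on both sides of DMSO. For both genes the SCD1-KO array stood above the other 2, which were alike.

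The 3 human paralogues of bacterial S18 are MRPS18A, MRPS18B and MRPS18C, of which structures place MRPS18A in the large subunit and the others in different parts of the small subunit. MRPS18C had 412 with T-3764518, 439 in the SCD1-KO cells and 408 with DMSO, ratios of 0.02 and 0.11. In SCD1-KO cells the paralogues thus read -0.54 (MRPS18A), -0.56 (MRPS18B) and 0.11 (MRPS18C). MRPS30, also placed in the large subunit by structures, had 1305, 1419 and 1734 (-0.48 and -0.21). Its 3 probe sets spread from -0.80 to 0.05 with T-3764518, the brightest being the one at 0.05, so its T-3764518 ratio depends on the probe set.

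The members lowest on both arrays, ranked by whichever of their ratios lay nearer 0, were MRPL12, MRPL32, MRPS14, MRPS5 and MRPL35. MRPL32, which must be cut by a mitochondrial protease before it can join the ribosome, had 3660 with T-3764518, 3831 in the SCD1-KO cells and 5036 with DMSO, ratios of -0.46 and -0.39. MRPL35 had 437, 443 and 566 (-0.49 and -0.37), but its brightest probe set read 0.10 and -0.09. Of these 5 genes, MRPL32 alone had a single kept probe set, MRPS14 and MRPS5 were lower on each of theirs, and MRPL12 and MRPL35 had a probe set above DMSO in a ratio. Both ratios divide by the same DMSO array, so a low value in both is not a repeat measurement.

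The members highest on both arrays by the same rank were MRPL54, MRPL49, MRPL52, MRPS2 and MRPS15. MRPL52, a mitochondria-specific protein, had 718 with T-3764518, 711 in the SCD1-KO cells and 639 with DMSO, ratios of 0.17 and 0.15, which rest on its dimmer probe set (0.32 and 0.38), while the brighter read 0.02 and -0.07. MRPS15 had 1021, 1007 and 977 (0.14 and 0.13). For MRPS15 a dim probe set read -0.33 and -0.24.

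Between the arrays, the largest gaps in the large subunit were those of MRPL36 (a SCD1-KO ratio higher than the T-3764518 ratio by 0.72) and MRPL16 (0.61). In the small subunit they were those of MRPS18B (-0.71), MRPS10 (-0.64) and MRPS27 (-0.59), all lower in the SCD1-KO cells. For MRPL36, MRPL16, MRPS18B and MRPS27 the DMSO array cancels in these gaps, which compare the SCD1-KO and T-3764518 arrays directly. For MRPS10 it does not cancel fully, since the median ratios with T-3764518 and in the SCD1-KO cells came from different probe sets. The brightest MRPS10 probe set read 0.34 with T-3764518 and 0.16 in the SCD1-KO cells, so for that gene the gap was narrower on its brightest probe set.

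Grouped by place in the large subunit, a grouping chosen after the values were seen, the 3 stalk proteins, which receive translation factors, had median ratios below 0 on both arrays, though for MRPL12 in the SCD1-KO cells the brighter probe set lay above DMSO. MRPL10 had 4672 with T-3764518, 4291 in the SCD1-KO cells and 4848 with DMSO (-0.05 and -0.18), and MRPL11 had 2427, 2413 and 2564 (-0.08 and -0.09). Apart from MRPL12, the stalk genes thus lay close to DMSO. Most members lay below 0 (72.0% with T-3764518 and 62.7% in the SCD1-KO cells), so 3 genes below 0 are no result about the stalk.

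The 8 proteins around the exit tunnel had medians of -0.20 with T-3764518 and -0.12 in the SCD1-KO cells, with 7 and 6 below 0. Of all 75 members, 72.0% and 62.7% lay below 0, so counts in a group this small are no result about the tunnel. MRPL45, which anchors the mitoribosome to the inner membrane, had 2145, 1983 and 2473 (-0.21 and -0.32). MRPL44, which resembles a ribonuclease, had 1248, 1099 and 1395 (-0.16 and -0.34). MRPL23 had 2049, 2386 and 2548 (-0.31 and -0.09), and MRPL24 was the only tunnel gene above DMSO with T-3764518, at 2243, 2034 and 1990 (0.17 and 0.03). MRPL17, whose promoter holds 3 overlapping or neighbouring NRF1 cores, had 1949, 2431 and 2278 (-0.23 and 0.09), on opposite sides of DMSO.

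The 4 proteins near the peptidyl transferase centre, where peptide bonds are made, had medians of -0.09 and -0.07. MRPL3 had 13784 with T-3764518, 11202 in the SCD1-KO cells and 12233 with DMSO (0.17 and -0.13), and MRPL27 had 3180, 3391 and 4012 (-0.34 and -0.24). MRPL2 had 1274, 1136 and 1142 (0.16 and -0.01). With MRPL16 at -0.54 and 0.07, proteins that lie side by side in the ribosome ranged from below to above DMSO on the T-3764518 array.

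The 5 proteins of the central protuberance, a crest that faces the small subunit, had medians of -0.22 and -0.11, with 4 below 0 in each. Beside 72.0% and 62.7% of all 75 members, these counts are no result about the protuberance. MRPL18 had 4704 with T-3764518, 6112 in the SCD1-KO cells and 5660 with DMSO (-0.27 and 0.11). MRPL40 had 2483, 2289 and 2900 (-0.22 and -0.34), and MRPL48 had 2891, 2055 and 2735 (0.08 and -0.41). MRPL38 was lower than DMSO on both arrays at 361, 422 and 457 (-0.34 and -0.11). These genes thus lay on both sides of DMSO on each array.

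MRPL46 and MRPS11, of different subunits, are next to each other among the protein-coding genes of their chromosome. MRPL46 had 1351 with T-3764518, 1370 in the SCD1-KO cells and 1461 with DMSO (-0.11 and -0.09), and MRPS11 had 1089, 1295 and 1123 (-0.04 and 0.21). The neighbours read alike with T-3764518 and lay on opposite sides of DMSO in the SCD1-KO cells.

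Agreement between probe sets of the same gene shows how far a ratio on these arrays can be read. Of the 31 members with more than 1 kept probe set, 15 had probe sets on both sides of DMSO with T-3764518, 13 had all below and 3 all above. In SCD1-KO cells these numbers were 16, 12 and 3. The other 44 members had 1 kept probe set, among them MRPS34, MRPL22, MRPS27, MRPL16 and MRPL36, so their ratios had no such check. The SD between probe sets of a member was 0.29 in each ratio, over the 87 probe sets of these 31 members. The SD between members, 0.22 and 0.26, was taken over the gene medians of all 75. These SDs thus cover unlike sets and are not compared. Among the dimmest members, MRPL19 had 354 with T-3764518, 387 in the SCD1-KO cells and 374 with DMSO (0.02 and 0.01) and MRPS25 had 346, 426 and 469 (-0.45 and -0.05), each on 3 probe sets. Over all genes the SD between probe sets was 0.16 and 0.17 in the brightest quintile of probe-set signals and 0.61 and 0.66 in the dimmest. By mean signal, 44 of the 75 members lay in the brightest quintile. The SD between probe sets measures disagreement of probes on the same RNA and not the spread between cultures, which 1 array per condition does not give.

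**Figure D4:**
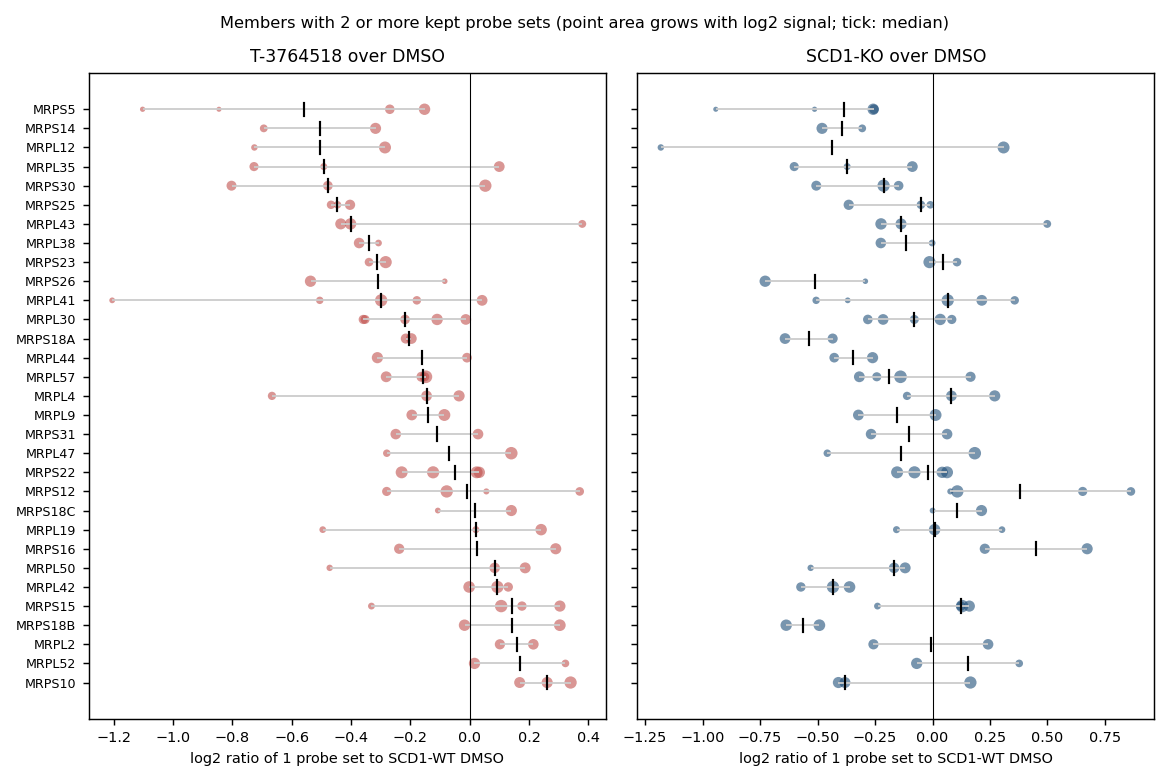
Log2 ratio to SCD1-WT DMSO of each kept probe set of the 31 members with more than 1, with T-3764518 (left panel) and in the SCD1-KO cells (right panel); point area grows with log2 signal and the tick is the gene's median. Probe sets of 15 genes with T-3764518 and 16 in the SCD1-KO cells lie on both sides of 0, and the dim MRPL12 probe set reaches -1.18 in the SCD1-KO cells.

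Several proteins of the mitoribosome carry other symbols, and 4 of the 5 listed here were tested. PTCD3, a pentatricopeptide repeat protein of the small subunit, had 473 with T-3764518, 568 in the SCD1-KO cells and 699 with DMSO, ratios of -0.54 and -0.31, and all 4 of its probe sets were lower than DMSO on both arrays. CHCHD1, of the small subunit, had 4804, 4035 and 6037 (-0.33 and -0.58). Both were highest with DMSO, as MRPS34 and MRPS14 were.

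DAP3, a GTP-binding protein of the small subunit, had 2203 with T-3764518, 2117 in the SCD1-KO cells and 2178 with DMSO (0.02 and -0.04). GADD45GIP1, also called CRIF1, which sits near the exit tunnel of the large subunit, had 509, 367 and 455 (0.16 and -0.31). DAP3 hardly differed between arrays, and GADD45GIP1 was below DMSO in the SCD1-KO cells on both of its probe sets, which read -0.08 and 0.40 with T-3764518.

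Of 25 factors that assemble the mitoribosome or modify its RNA, 24 were tested, with medians of -0.14 with T-3764518 and -0.02 in the SCD1-KO cells. Only RPUSD4, a pseudouridine synthase that acts on the large ribosomal RNA, differed by 2-fold, with 2185 with T-3764518, 940 in the SCD1-KO cells and 2232 with DMSO (-0.03 and -1.25). Of 18 tested mitochondrial translation factors, 0 differed by 2-fold, with medians of 0.04 and -0.09. The 11 genes of mitochondrial transcription and DNA maintenance had medians of -0.19 and -0.09, and 0 differed by 2-fold. Of all tested genes, 2.18% were higher and 3.3% lower by 2-fold with T-3764518, and 3.12% and 3.93% in the SCD1-KO cells. Counts of 0 or 1 in groups this small are near these shares and are no result about the groups. Among 9 regulators of mitochondrial biogenesis (medians 0.18 and -0.14), 4 lay below 0 with T-3764518 and 5 in the SCD1-KO cells. NRF1 itself had 212, 193 and 226 (-0.03 and -0.15) and GABPA, the DNA-binding subunit of GABP, had 710, 629 and 549 (0.37 and 0.20). The 2 probe sets of GABPA read 0.09 and 0.65 with T-3764518. In the SCD1-KO cells they read -0.02 and 0.42, so GABPA has no settled direction there. The 19 genes of import and processing had medians of 0.08 and -0.01, and AFG3L2, a subunit of the protease that cuts MRPL32, read -0.01 and -0.11. None of the listed messages encoded in mitochondrial DNA was named by a probe set with 1 gene, so what the mitoribosome translates was not measured here.

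The nuclear-encoded oxidative phosphorylation genes, which work with the mitoribosome's products, had lower medians than the mitoribosomal genes. Their 71 tested genes had medians of -0.23 with T-3764518 and -0.20 in the SCD1-KO cells, with 65 and 61 below 0, and 2 were lower by 2-fold with T-3764518. The 53 tested cytosolic ribosomal protein genes had medians of -0.01 and -0.16, with 28 and 46 below 0, and 1 was lower by 2-fold in the SCD1-KO cells. Of all tested genes, 59% lay below 0 with T-3764518 and 51.1% in the SCD1-KO cells. By 2-fold, 3.3% and 3.93% of them were lower, so the counts at 2-fold in both groups are near the background. With T-3764518 the mitoribosomal median of -0.13 thus lay between those of the oxidative phosphorylation and the cytosolic ribosomal genes, and in the SCD1-KO cells its -0.09 was nearer 0 than either. With 1 array per condition these differences between gene groups were not tested.

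**Figure D5:**
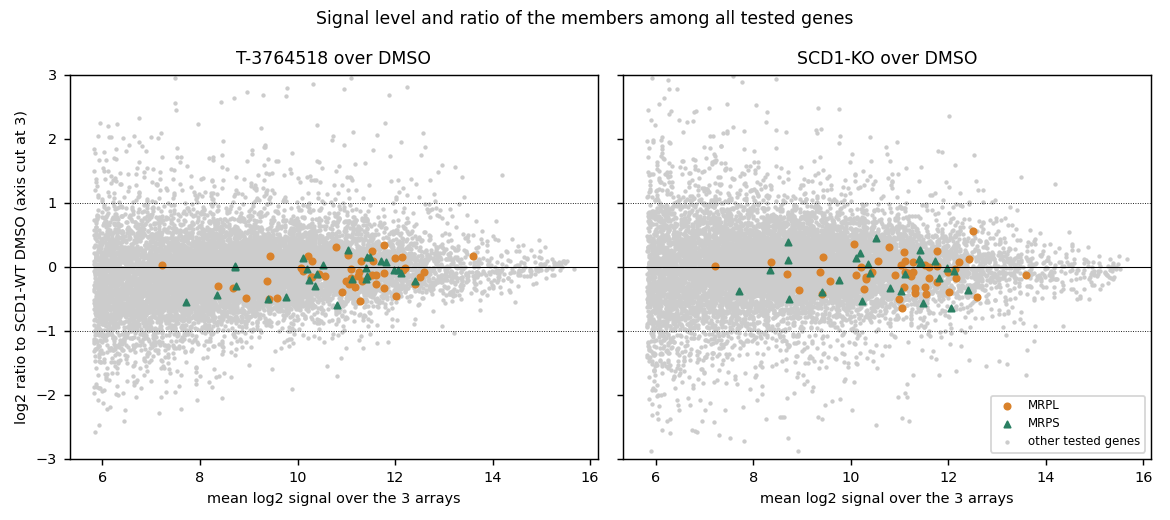
Log2 ratio to SCD1-WT DMSO against mean log2 signal over the 3 arrays (median over kept probe sets) for large-subunit (MRPL, orange) and small-subunit (MRPS, green) genes and other tested genes (grey), with T-3764518 (left panel) and in the SCD1-KO cells (right panel); dotted lines mark 2-fold and the vertical axis is cut at 3. All 75 members lie inside the dotted lines, and 46 lie above percentile 80 of the tested genes in mean signal.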

How the data were processed

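Total RNA of 3 HCT-116 cultures was hybridised to the Human Genome U133 Plus 2.0 Array by a service laboratory. The authors deposited linear signal intensities, 1 per probe set and array, made with MAS5 by the submitters' processing notes (version not given in the sources used here). Samples were grouped by their titles, and 0 other columns of per-sample values were present. All later steps used Python 3.11.15 with pandas 2.3.3, numpy 2.4.6, statsmodels 0.14.6 and matplotlib 3.10.9.

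Of 54675 probe sets, 41097 carried 1 gene symbol in the platform annotation, 1801 several, and 11777 were not listed. By gene ID, 41043 of the first kind were matched to RefSeq genes, and 0 symbols were updated. Dim probe sets were dropped, those whose log2 signal averaged less than percentile 50 of the whole array (a signal of 56.6), which left 23192 probe sets of 12321 genes. A gene's log2 ratio to the DMSO array was the median over its kept probe sets, called at 2-fold. MAS5 subtracts background and scales whole arrays, so dim ratios are noisy and directions are relative to that scale. The number of arrays limits the precision, and no test was run.

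The members, lists and alternatives were chosen with earlier results of these data known. Named were, for each ratio and subunit, the 3 highest and 3 lowest members, the 5 highest and 5 lowest in both ratios, the 5 whose ratios differed most, the 3 brightest and 3 dimmest, MRPS30, the MRPS18 paralogues, related genes called at 2-fold, and structural subunits under other symbols. Members described by place, by neighbour or as regulators were chosen after their values were seen. Scripts were tested on simulated data. Alternatives were quantile normalization, scaling to 1 median, lowess correction (span 0.3), other filters (none, or percentile 75), an added offset of 16.5 (percentile 25 of signals), other gene values, other folds (1.5 and 3), another subunit assignment, and a floor at the filter chosen after seeing the data.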

Additional observations from a re-analysis of the deposited data

How the results depend on the processing

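The 1.5-fold threshold gave 1 member lower with T-3764518 and 2 lower in the SCD1-KO cells, against 0 and 0 at 2-fold. Scaling each array to 1 median signal turned the members' median to 0.147 with T-3764518 and 0.0475 in the SCD1-KO cells, by construction, since it shifts every gene by the same amount. Taking the brightest probe set gave a median of -0.0987 with T-3764518. Without the signal filter, 1 member was higher by 2-fold with T-3764518 (MRPL55, 1.10) and 1 lower in the SCD1-KO cells (MRPS27, -1.56), in each case through a dim probe set, and the large minus small difference with T-3764518 was 0.0442. Without probe sets that can match several transcripts (marked _s_at or _x_at), 41 members were left, with a median of -0.124 and 1 member lower by 2-fold (MRPL12, -1.18) in the SCD1-KO cells, and large minus small differences of 0.228 with T-3764518 and 0.0802 in the SCD1-KO cells. The other 78 of 90 values of counts, medians and differences stayed within their spread or count, though the large minus small difference in the SCD1-KO cells also turned positive with the filter at percentile 75 (0.0136) and with the mean of probe sets (0.0097). Among named genes, 663 of 712 values moved by less than the spread between probe sets of like signal and 49 by more. No paired analysis was possible because each condition has 1 array. The brightest probe set gave the opposite sign for MRPL35, MRPS30 and GADD45GIP1 with T-3764518 (0.10, 0.05 and -0.08) and for MRPL12, MRPS10, MRPL52 and DAP3 in the SCD1-KO cells (0.31, 0.16, -0.07 and 0.03). Low signal limits the dim members: 3 kept probe sets of MRPL41 and MRPS5 lay under the filter's level on at least 1 array.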
